A study of Homo sapiens with 9 samples.

Results

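The resting transcriptome of ES-2 cells was described from the 3 libraries of control siRNA (siC) transfected cells, out of 9 libraries in the series. These libraries were chosen by their siRNA label alone, and the other 6, made after depletion of IGF2BP1 or SRF, were not compared with them here. ES-2 is an established line derived from an epithelial ovarian carcinoma and was first described as a clear cell tumour. The cells were grown in DMEM with fetal bovine serum and harvested 72 h after transfection of the control siRNA, so every library carries the transfection itself, and none of the 9 is from untransfected cells. Total RNA was sequenced after depletion of ribosomal RNA with a strand-marking kit. The labels do not say whether the 3 libraries came from separate cultures, so their spread may be technical in part.

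Ovarian carcinomas are epithelial tumours, and their cells are usually recognised by E-cadherin, EpCAM and keratins together with transcription factors of the Müllerian duct such as PAX8. Carcinoma cells can lose these adhesion genes and take up vimentin, N-cadherin and other genes of mesenchymal cells, a change called epithelial-mesenchymal transition (EMT) that factors of the SNAIL, ZEB and TWIST families can drive. A cell line also carries a set of surface and nuclear receptors that defines which growth factors, hormones and matrix proteins it can respond to.

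Levels are given as FPKM, fragments scaled to the length of the gene and the depth of the library, as the authors deposited them. Each gene has a single deposited length, whichever of its transcripts is expressed. Ranks and ratios between genes depend on that length, and its effect was not tested. Multiplied by length, each FPKM value of a library was an integer number of the smallest such product (100% of values), so the underlying reads could be counted. The libraries held 6421764, 6739061 and 7253729 reads on genes in siC replicates 1, 2 and 3. All 37 genes of the mitochondrial genome were listed at 0 in every library, although mitochondrial RNA is abundant in all cells, so a value of 0 in these files is not by itself evidence that a gene is silent. For genes with no read, the level that 3 reads over all 3 libraries would give is stated as a limit, which covers counting error only.

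Of 19799 protein-coding genes, 10328 had a mean of at least 1 FPKM (52.2%), and 7422 were below 0.1 FPKM (37.5%). Single libraries gave between 10315 and 10326 genes at 1 FPKM or more, and 10090 genes reached this level in every library. No read was counted in any library for 5582 protein-coding genes. The reads were spread unevenly over the expressed genes. The 326 genes of at least 100 FPKM made up 1.65% of protein-coding genes and took 27.1% ± 0.321 (SD, n = 3) of protein-coding reads, and the 3777 genes between 10 and 100 FPKM took 51.6% ± 0.199 (SD, n = 3). The 6225 genes between 1 and 10 FPKM, the largest expressed class, held 20.7% ± 0.139 (SD, n = 3) of these reads.

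**Figure D1:**
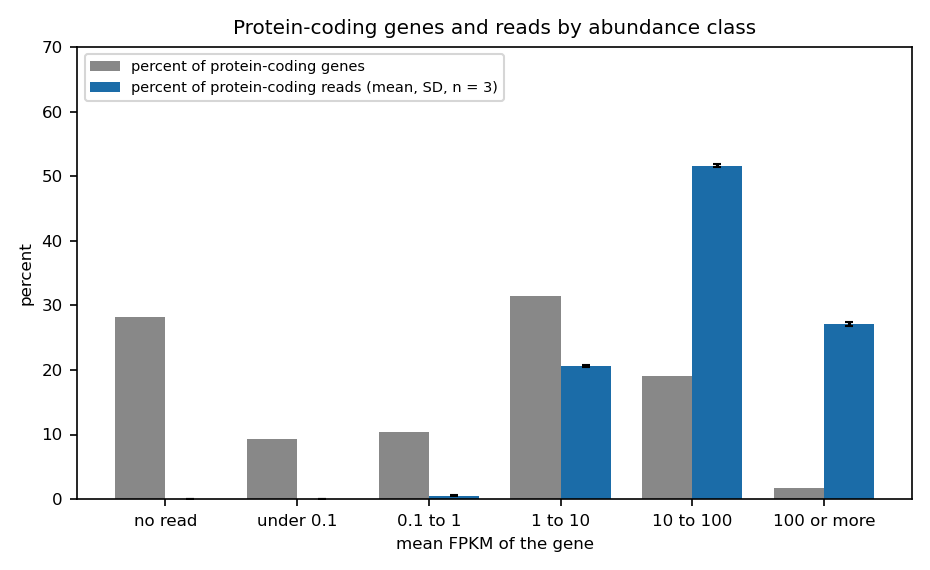
Share of the 19799 protein-coding genes (grey bars, percent) and share of protein-coding reads (blue bars, percent, mean with SD over 3 siC libraries) in 6 classes of mean FPKM. Genes of 10 FPKM or more are the minority of genes and hold most of the reads, 51.6% in the class of 10 to 100 FPKM and 27.1% above it.

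By class of gene, protein-coding genes took 90.8%, 89.7% and 90.9% of reads in replicates 1, 2 and 3. The class labelled misc_RNA, which includes the 7SL RNA of the signal recognition particle, took 5.28%, 6.31% and 5.28%, so that replicate 2 was higher than the other libraries by about 1 percentage point. Pseudogenes took 1.91% ± 0.00999 (SD, n = 3), long intergenic non-coding RNAs 0.59% ± 0.000954 (SD, n = 3), small nucleolar RNAs 0.437% ± 0.0626 (SD, n = 3) and antisense transcripts 0.367% ± 0.00676 (SD, n = 3). Outside the protein-coding class, 1214 of 14626 pseudogenes, 501 of 7514 long intergenic RNAs and 475 of 5525 antisense genes had a mean of at least 1 FPKM. Per length, misc_RNA genes held 40.0% ± 2.28 (SD, n = 3) of summed FPKM and protein-coding genes 48.1% ± 2.09 (SD, n = 3).

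The gene with most reads was RN7SL2, a gene of 7SL RNA, with 4.52%, 5.38% and 4.56% of all reads in replicates 1, 2 and 3. By reads it was followed by EEF1A1, MMP1, VIM, EEF2, GAPDH, RN7SL5P, HSP90AB1, HSPA8 and RPL4, and these 10 genes together took 9.65% ± 0.495 (SD, n = 3) of reads. The most abundant other genes per length were RN7SL2, RN7SL5P, RN7SL4P, RN7SL3, RPL41P1, RP11.84E17.1, SNORD3A, SNORD3B.2, CTD.2031P19.4 and EEF1A1P5. They lay between 1424 FPKM for EEF1A1P5 and 158958 FPKM for RN7SL2. Several are copies of each other or of a protein-coding gene, and how the counting divided reads between copies is uncertain. EEF1A1 itself had 270038 reads over the 3 libraries and its 39 annotated pseudogenes 67249, which is 19.9% of the sum. For RPL41, a ribosomal protein gene, the copies held 58.6% of the sum.

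Among protein-coding genes, MMP1 was the most abundant per length. It encodes interstitial collagenase, a secreted protease that cleaves fibrillar collagen. The gene spans positions 102789401 to 102798160 of chromosome 11 on the minus strand (coordinates here are of GRCh38, from GENCODE). Its level was 3823, 3832 and 4168 FPKM in replicates 1, 2 and 3, from 49721, 51299 and 59391 reads. All 3 values lay above every value of the next gene, EEF1A1, the translation elongation factor that carries aminoacyl-tRNA, at 2138, 2212 and 2247 FPKM. By reads the order was reversed, with 83958, 89402 and 96678 for EEF1A1, whose deposited length is 5948 bases. The ratio of MMP1 to EEF1A1 within a library was 1.79 ± 0.0612 (SD, n = 3), and that of MMP1 to the glycolytic enzyme gene GAPDH was 2.82 ± 0.102 (SD, n = 3).

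Histone genes made up 10 of the 20 most abundant protein-coding genes. HIST1H4K, HIST1H4J, HIST1H4D and HIST1H4C encode histone H4, HIST1H3B, HIST1H3C and HIST1H3F encode histone H3, and HIST1H1C, HIST1H1B and HIST1H1E encode linker histones. Their means ran from 876 FPKM for HIST1H1E to 1794 FPKM for HIST1H4K. Transcripts of these genes mostly end without a poly(A) tail and are kept in libraries of total RNA. Of 72 protein-coding genes with a HIST symbol, 60 were at 10 FPKM or more, beside 4103 of all 19799 protein-coding genes. Together the 72 genes took 1.31%, 1.44% and 1.31% of reads. The genes of a histone type are similar in sequence to differing degrees, so the level of a single gene is uncertain. The remaining 8 of the 20 were RPS12, RPL13A, TMSB10, EEF2, HSP90AB1, VIM, GAPDH and FTL, which encode ribosomal proteins, a thymosin that binds actin monomers, the elongation factor of translocation, a chaperone, vimentin, a glycolytic enzyme and the light chain of ferritin. They ranged from 790 FPKM ± 27.7 (SD, n = 3) for FTL to 1597 FPKM ± 113 (SD, n = 3) for RPS12. VIM had the smallest spread of the 20, at 1065, 1046 and 1055 FPKM.

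**Figure D2:**
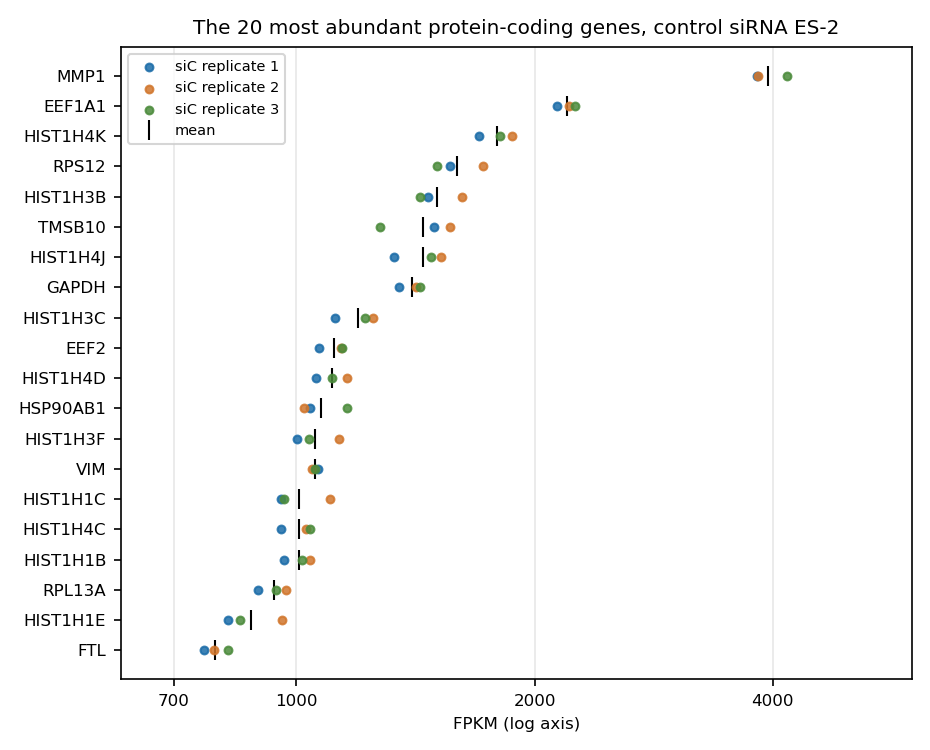
FPKM (log axis) of the 20 most abundant protein-coding genes in each of the 3 siC libraries (coloured points) with their mean (black bar). MMP1 is separated from all others, between 3823 and 4168 FPKM, while most neighbours from rank 3 downward have overlapping ranges.

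Reference genes are given as landmarks. All 16 genes of the list were at 1 FPKM or more, beside 52.2% of all protein-coding genes. They ran from TBP, the TATA-binding protein, at 4.90, 6.41 and 5.13 FPKM to EEF1A1, with a list median of 71.0 FPKM. No outside value was compared, so the scale was not tested. The ribosomal stalk gene RPLP0 was at 737 FPKM ± 28.2 (SD, n = 3), the actin gene ACTB at 713 FPKM ± 33.1 (SD, n = 3) and the peptidyl-prolyl isomerase gene PPIA at 333 FPKM ± 14.3 (SD, n = 3). IGF2BP1 and SRF, the genes targeted in the libraries not used here, were at 12.8 FPKM ± 0.689 and 14.5 FPKM ± 1.28 (SD, n = 3) in siC cells.

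The label of an epithelial ovarian carcinoma was checked against its markers, and most of the defining ones were at or near 0. Of 27 epithelial genes, 4 were at 1 FPKM or more (14.8%, beside 52.2% of all protein-coding genes). Below 0.1 FPKM were 20, beside 37.5% of all protein-coding genes. No read was counted for 14 of the 27, beside 28.2% of all protein-coding genes. The median of the list was 0 FPKM, against 1.37 FPKM over all protein-coding genes. In bulk RNA, fewer cells of a type and less RNA per cell cannot be told apart. CDH1, which encodes E-cadherin (chromosome 16, 68737292 to 68835537, plus strand), had no read in any library, which allows up to 0.0235 FPKM. EPCAM, the epithelial adhesion molecule (chromosome 2, 47345158 to 47387601, plus strand), had none either, which allows up to 0.0577 FPKM. No read was counted for the tight junction genes CLDN3 and TJP3, the epithelial splicing factor gene ESRP1, the transcriptional repressor gene OVOL2 or the keratin gene KRT19. CLDN7 and GRHL2, the latter a transcription factor that maintains epithelial genes, had 1 read each over the 3 libraries, and ELF3 had 3.

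The expressed members of the epithelial list were mainly simple keratins. KRT7, the highest, was at 97.5, 106 and 100.2 FPKM in replicates 1, 2 and 3. KRT18 was at 42.6, 45.7 and 41.8 FPKM and its usual partner KRT8 at 8.54, 9.20 and 8.70 FPKM, and the values of these 3 genes did not overlap. Per length, KRT18 exceeded KRT8 by a factor of 4.92 ± 0.106 (SD, n = 3) within libraries, and the encoded proteins pair in filaments. This factor depends on the deposited lengths, 3218 bases for KRT18 and 6881 for KRT8. The mean reads of the genes were 959 and 417. The remaining gene above 1 FPKM was PKP3, a desmosomal plakophilin, at 2.66 FPKM ± 0.269 (SD, n = 3), and the tight junction gene OCLN followed at 0.521 FPKM ± 0.0803 (SD, n = 3).

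Of 27 mesenchymal genes, 17 were at 1 FPKM or more (63.0%, beside 52.2% of all protein-coding genes). Below 0.1 FPKM were 6, beside 37.5% of all protein-coding genes, and the list median was 5.81 FPKM. VIM, the intermediate filament gene of mesenchymal cells (chromosome 10, 17228241 to 17237593, plus strand), was followed by AXL, a receptor tyrosine kinase, at 256, 274 and 280 FPKM. CAV1, the scaffold of caveolae, was at 172 FPKM ± 5.72 (SD, n = 3), NT5E, the surface nucleotidase CD73, at 155 FPKM ± 9.88 (SD, n = 3), and LOX, which crosslinks collagen, at 104 FPKM ± 4.32 (SD, n = 3). VIM exceeded KRT7 by a factor of 10.4 ± 0.530 and KRT18 by a factor of 24.4 ± 1.31 within libraries (SD, n = 3). The difference between the list medians of log2(FPKM + 0.1), mesenchymal minus epithelial, was 5.83, 5.91 and 5.92 in replicates 1, 2 and 3. Its size is set by the pseudocount, since the epithelial median is 0.

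Among the mesenchymal genes, 5 that encode matrix proteins of stromal fibroblasts had no read. COL1A2 and COL3A1, which encode chains of the fibrillar collagens, were listed at 0, which allows up to 0.0130 and 0.0214 FPKM, and the others were POSTN, DCN and LUM. COL1A1, whose product combines with that of COL1A2 in type I collagen, was at 3.55, 4.20 and 2.76 FPKM. CNN1, a calponin of smooth muscle, was at 0.0839 FPKM from 5 reads.

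EMT transcription factors were present at moderate levels. All 9 were at 0.1 FPKM or more, beside 12377 of 19799 protein-coding genes. At 1 FPKM or more were 7 (77.8%, beside 52.2% of all protein-coding genes). TWIST1 was at 9.68, 11.0 and 10.7 FPKM, TWIST2 at 10.9, 10.1 and 9.64 FPKM and ZEB1 at 10.2, 9.80 and 10.4 FPKM, so that the ranges of these 3 factors overlapped and their order could not be given. PRRX1 followed at 7.37 FPKM ± 0.774 (SD, n = 3). SNAI2 was at 4.19, 2.87 and 2.70 FPKM and overlapped with ZEB2 at 2.71 FPKM ± 0.195 (SD, n = 3). SNAI1, the first member of the SNAIL family, was the lowest at 0.180, 0.0873 and 0.328 FPKM, and FOXC2 stood at 0.661 FPKM ± 0.181 (SD, n = 3).

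**Figure D3:**
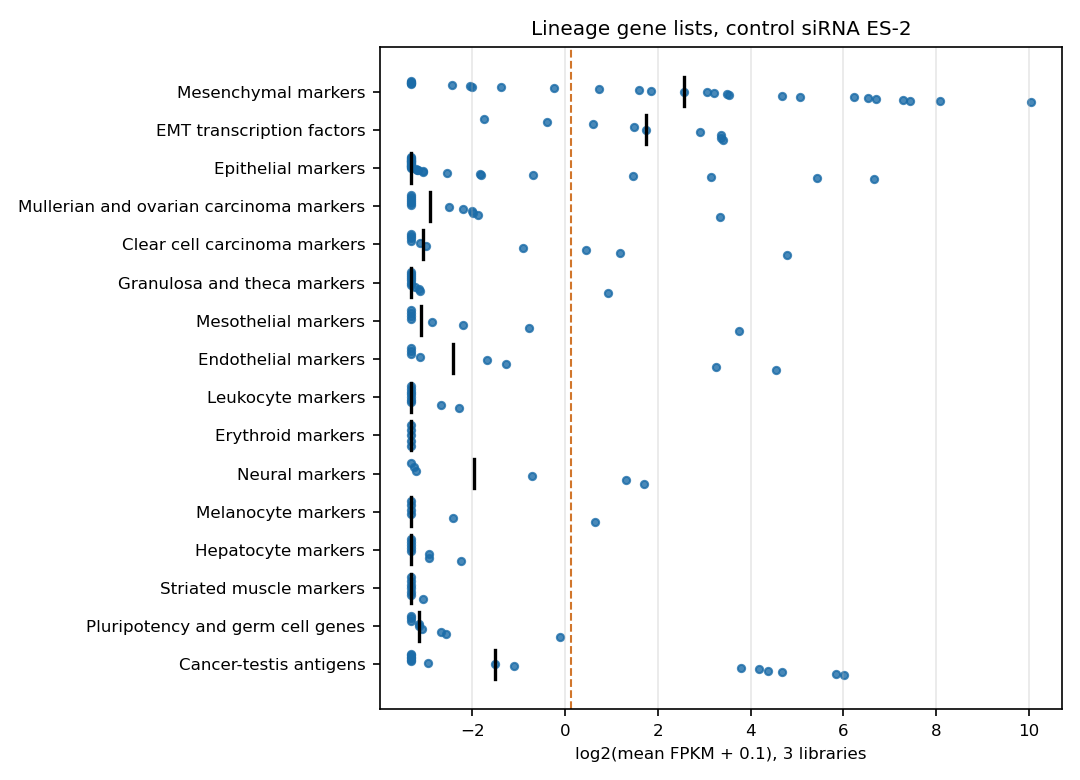
Mean level over 3 siC libraries, as log2(FPKM + 0.1), of every gene (points) of 16 lineage lists, with the list median (black bar) and the 1 FPKM line (dashed). The medians of the mesenchymal list and the EMT factors lie above the line and the medians of the other 14 lists below it, with single genes such as KRT7, BNC1, TIE1 and MAGEA3 far from the median of their own list.

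Genes that identify Müllerian and ovarian carcinoma cells were mostly at or near 0. Of 12 genes, 1 was at 1 FPKM or more (8.33%, beside 52.2% of all protein-coding genes). This was MECOM, a zinc finger regulator on a chromosome arm often amplified in ovarian cancer, with 8.92, 10.1 and 11.24 FPKM. PAX8, the Müllerian transcription factor, was at 0.143, 0.0597 and 0.262 FPKM from 24 reads in all, and WT1, the serous marker, was at 0.118 FPKM ± 0.0405 (SD, n = 3). The steroid receptor genes PGR and ESR1 were at 0.172 FPKM ± 0.0250 and 0.150 FPKM ± 0.0833 (SD, n = 3). SOX17, EMX2, FOLR1, MSLN, WFDC2 and MUC16, the last encoding the CA125 antigen, had no read. For MUC16 this allows up to 0.00332 FPKM, since the gene is long. OVGP1, the oviductal glycoprotein, had 4 reads.

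The clear cell list was mixed. TFPI2, a secreted protease inhibitor used as a clear cell marker, was at 27.8, 25.6 and 29.3 FPKM, and ANXA4 and AMACR were at 2.19 FPKM ± 0.242 and 1.26 FPKM ± 0.445 (SD, n = 3). NAPSA, an aspartic protease used in diagnosis, had 2 reads, GPX3 had 1, and LEFTY1, FXYD2 and UGT1A1 had none. SPP1, osteopontin, was at 0.522, 0.0634 and 0.715 FPKM. In all, 3 of 10 genes reached 1 FPKM (30%, beside 52.2% of all protein-coding genes). For UGT1A1, 50.1% of exonic bases are shared with other genes of the same strand, and for LEFTY1 46.6%. Whether this moved their counts was not tested.

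Markers of other cells were mostly near 0. For comparison, 52.2% of all protein-coding genes were at 1 FPKM or more and 37.5% were below 0.1 FPKM. Of 11 granulosa and theca genes, AMH, the anti-Müllerian hormone, was at 0.995, 1.76 and 2.62 FPKM and the other 10 were below 0.1 FPKM, FOXL2 and NR5A1 without a read. Of 8 mesothelial genes, the zinc finger gene BNC1 was at 12.9, 12.6 and 14.7 FPKM, CALB2 at 0.482 FPKM ± 0.0753 (SD, n = 3), and MSLN, PDPN, LRRN4 and ITLN1 had no read. No member of the leukocyte (9 genes), erythroid (5), hepatocyte (8), striated muscle (7) or pluripotency and germ cell (9) lists reached 1 FPKM. Their highest members were CD14 at 0.106 FPKM, SERPINA1 at 0.111 FPKM, ACTC1 at 0.0199 FPKM and LIN28B, an inhibitor of let-7 maturation, at 0.832 FPKM ± 0.0663 (SD, n = 3), and all 5 erythroid genes had no read. PTPRC, the pan-leukocyte antigen CD45, had no read, which allows up to 0.0174 FPKM. Among melanocyte genes MITF was at 1.47 FPKM ± 0.0537 (SD, n = 3), with MLANA, TYR, DCT and SOX10 without a read. Of 6 neural genes, the synaptic gene SNAP25 and the myelin gene MBP were at 3.15 FPKM ± 0.423 and 2.38 FPKM ± 0.229 (SD, n = 3). SYT1 was at 0.515 FPKM, GFAP and RBFOX3 were below 0.1 FPKM and NEUROD1 had no read.

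A pair of endothelial genes stood apart from their list. TIE1, an endothelial receptor tyrosine kinase (chromosome 1, 43300982 to 43323108, plus strand), was at 20.9, 25.6 and 23.7 FPKM, from 923, 1166 and 1149 reads. CDH5, the cadherin of endothelial junctions (chromosome 16, 66366690 to 66404784, plus strand), was at 8.09, 10.6 and 9.49 FPKM. The ratio of TIE1 to CDH5 was 2.50 ± 0.0783 (SD, n = 3). The defining endothelial genes PECAM1 and VWF were at 0.313 FPKM ± 0.0587 (SD, n = 3) and 0.0139 FPKM, EGFL7 was at 0.211 FPKM ± 0.0927 (SD, n = 3), and TEK, CLDN5 and ERG had no read. None of the exonic bases of TIE1 is shared with another gene of the same strand.

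Cancer-testis antigens, which are normally confined to germ cells and reappear in tumours, ranged from no read to 64.4 FPKM. Of 15 genes, 6 were at 1 FPKM or more (40%, beside 52.2% of all protein-coding genes). Below 0.1 FPKM were 7, beside 37.5% of all protein-coding genes. MAGEA3 was at 61.3, 65.8 and 66.1 FPKM and MAGEA12 at 56.9, 56.4 and 58.3 FPKM. MAGEC1, MAGEA10 and PRAME were at 25.4 FPKM ± 2.55, 20.6 FPKM ± 1.36 and 18.1 FPKM ± 1.06 (SD, n = 3). MAGEA1, CTAG1B, CTAG2, SSX1, SSX2 and GAGE1 had no read. The MAGEA genes, CTAG1B, the SSX genes and GAGE1 have near-identical copies, and their single values are uncertain.

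The promoters of some of these genes are shown because the levels of genes with low and high CpG content could be set beside their sequence. CpG dinucleotides are depleted in most of the genome and kept in CpG islands, which lie at the starts of many widely expressed genes. The 250 bases before the annotated start are given 5′ to 3′ from RefSeq (GRCh38.p14), with each CG in capitals, for the highest mesenchymal gene (VIM, chr10:17227991-17228240, plus strand), the highest receptor tyrosine kinase (AXL, chr19:41218973-41219222, plus strand, the more upstream of its 2 starts), the highest epithelial gene with an entry in the table (KRT8, chr12:52926470-52926719, minus strand), the first epithelial gene of the list below 0.1 FPKM with an entry (CLDN3, chr7:73770271-73770520, minus strand) and a liver gene for contrast (ALB, chr4:73404037-73404286, plus strand). AXL, KRT8 and CLDN3 were chosen after their levels were known, since KRT7, CDH1 and EPCAM were named by the rule but not in the table. The windows of KRT8 and ALB lie inside the GENCODE spans of their genes, 52897187 to 52949954 and 73397114 to 73421482. Both genes thus have an annotated start further upstream, which these windows do not describe.
VIM: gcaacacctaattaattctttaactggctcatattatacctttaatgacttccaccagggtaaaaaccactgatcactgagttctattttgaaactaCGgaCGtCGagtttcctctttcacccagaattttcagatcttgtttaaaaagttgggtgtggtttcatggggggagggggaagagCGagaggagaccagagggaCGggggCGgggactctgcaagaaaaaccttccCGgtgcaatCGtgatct
AXL: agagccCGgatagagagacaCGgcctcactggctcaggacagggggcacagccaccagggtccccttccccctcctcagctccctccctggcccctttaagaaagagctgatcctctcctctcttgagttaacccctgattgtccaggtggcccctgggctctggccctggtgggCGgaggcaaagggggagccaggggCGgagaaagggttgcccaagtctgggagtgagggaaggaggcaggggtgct
KRT8: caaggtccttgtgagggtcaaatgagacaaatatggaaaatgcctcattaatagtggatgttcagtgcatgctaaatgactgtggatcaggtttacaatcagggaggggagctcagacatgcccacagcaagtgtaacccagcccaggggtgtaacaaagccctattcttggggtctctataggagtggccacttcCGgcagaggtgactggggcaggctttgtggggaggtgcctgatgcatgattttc
CLDN3: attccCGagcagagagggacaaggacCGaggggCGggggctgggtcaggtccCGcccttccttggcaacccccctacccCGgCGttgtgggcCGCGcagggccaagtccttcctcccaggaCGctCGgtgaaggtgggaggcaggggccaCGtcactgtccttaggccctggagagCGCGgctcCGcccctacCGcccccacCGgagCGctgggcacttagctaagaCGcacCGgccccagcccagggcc
ALB: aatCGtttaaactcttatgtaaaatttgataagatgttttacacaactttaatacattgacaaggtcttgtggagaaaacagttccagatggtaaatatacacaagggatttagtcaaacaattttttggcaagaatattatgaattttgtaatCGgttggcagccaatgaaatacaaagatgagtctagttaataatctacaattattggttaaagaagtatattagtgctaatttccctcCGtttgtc

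The CpG ratio is the number of CG in the 300 bases from 250 before to 50 after the start, divided by the number expected from the C and G content. It was 0.584 for VIM at 10 CG, 0.216 for AXL at 7 CG, 0.111 for KRT8 at 2 CG, 0.620 for CLDN3 at 24 CG and 0.481 for ALB at 4 CG. CLDN3 thus had the most CG and no read, while AXL, with 7 CG at a GC content of 66%, was at 270 FPKM. Over the protein-coding genes of at least 1 FPKM, 8547 of 10328 had a promoter window (82.8%), and their median CpG ratio was 0.856 with quartiles of 0.728 and 0.964, above each of these 5 genes. The planned difference to genes below 0.1 FPKM was not taken, because only 69.8% of them had a window. Over the windows that were matched, the median ratio was 0.730 at 0.1 to 1 FPKM. It was 0.563 below 0.1 FPKM with at least 1 read and 0.323 with no read.

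Within the expressed genes, the letters TATAAA, searched on both strands of the 300 bases, were in 19.9% of the windows of genes at 100 FPKM or more (267 genes), in 5.33% at 10 to 100 FPKM (3191 genes) and in 4.56% at 1 to 10 FPKM (5089 genes). In the classes below 1 FPKM they were in 9.52% at 0.1 to 1 FPKM, 11.7% below 0.1 FPKM with at least 1 read and 18.6% with no read, although 69.8% of the genes below 0.1 FPKM had a window. They were in 9.66% of all 15265 windows matched. In the highest class, 28 of 38 histone genes held TATAAA, and 25 of the 229 other genes did (10.9%). The letters CCAAT were in 49.1% of windows in the highest class, 38.9% and 36.6% in the classes below it and 36.6% of all windows. In the highest class CCAAT was in 31 of the 38 histone genes and in 43.7% of the others. Genes are not independent replicates, and these shares describe the windows only.

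Receptor tyrosine kinases, which bind growth factors or matrix at the cell surface, were expressed for 17 of 58 genes (29.3%), beside 52.2% of all protein-coding genes. Below 0.1 FPKM were 27, beside 37.5% of all protein-coding genes. AXL, the receptor of the vitamin K dependent ligand GAS6, was the highest and exceeded the next gene, EPHA2, by a factor of 4.46 ± 0.0884 within libraries (SD, n = 3). EPHA2, an ephrin receptor, was at 56.4, 62.8 and 62.3 FPKM and MET, the receptor of hepatocyte growth factor, was at 56.4, 56.2 and 58.7 FPKM, with overlapping ranges. TIE1 was next, and EGFR, the receptor of epidermal growth factor, was at 21.2, 22.0 and 21.5 FPKM, within the range of TIE1. Of the 17, 7 overlapped with the gene next below them in order. AXL exceeded EGFR by a factor of 12.5 ± 0.476 (SD, n = 3).

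Several growth factor receptors that are drug targets in carcinomas were near 0. ERBB2, which encodes HER2, had 1, 5 and 3 reads and a mean of 0.0421 FPKM, and ERBB4 was at 0.0336 FPKM. The insulin receptor gene INSR was listed at 0 in all libraries, which allows up to 0.0139 FPKM. Most tissues express this gene, and none of its exonic bases is shared with another gene of the same strand. INSRR, FLT3, FLT4, FGFR2 and NTRK2 had no read, and CSF1R, FLT1 and FGFR3 had between 1 and 6 reads. The IGF1R gene, named after its value was seen for its relation to INSR, was at 3.25, 3.73 and 3.04 FPKM.

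Nuclear receptors, transcription factors that mostly bind lipophilic ligands, were expressed for 21 of 48 genes (43.8%, beside 52.2% of all protein-coding genes), and 16 were below 0.1 FPKM, as were 37.5% of all protein-coding genes. ESRRA, an orphan receptor that drives mitochondrial genes, was the highest at 41.0, 49.2 and 44.6 FPKM. NR2F6, an orphan receptor, was at 19.7 FPKM ± 1.70 (SD, n = 3), NR3C1, the glucocorticoid receptor, at 18.7 FPKM ± 1.504, NR1H2, a receptor of oxysterols, at 11.9 FPKM ± 0.836 and NR1D2, a repressor of the circadian clock, at 8.87 FPKM ± 0.828 (SD, n = 3). The ranges of NR2F6 and NR3C1 overlapped. In all, 13 of the 21 overlapped with the gene next below. Of the oestrogen and progesterone receptors, ESR1 and PGR were given above and ESR2 had no read. The liver receptor genes HNF4A and NR1I2 had 1 read and none.

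**Figure D4:**
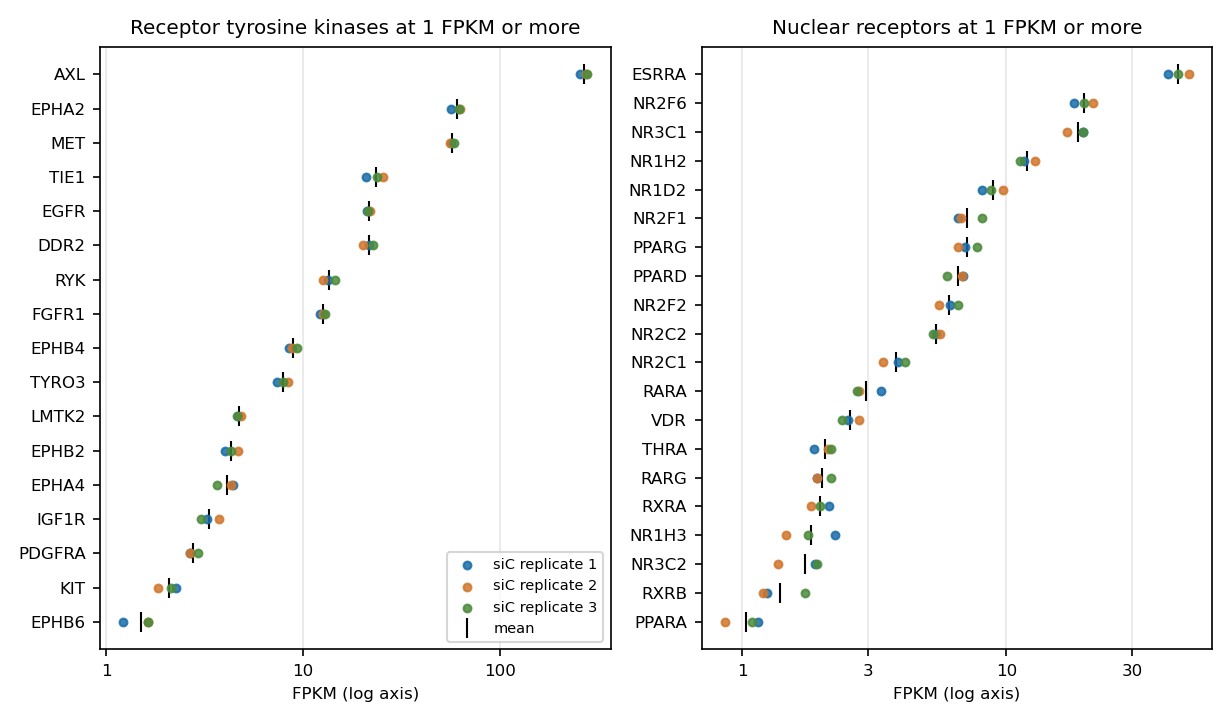
FPKM (log axes) of the 17 receptor tyrosine kinases (left) and 20 of the 21 nuclear receptors (right) with a mean of at least 1 FPKM, in each of the 3 siC libraries (coloured points) with their mean (black bar). AXL lies apart from the other kinases at 256 to 280 FPKM and ESRRA apart from the other nuclear receptors at 41.0 to 49.2 FPKM, while most genes below them overlap with a neighbour.

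Receptors of the TGF-beta family were expressed for 10 of 14 genes (71.4%, beside 52.2%). TGFBR2, which binds TGF-beta, was at 35.7, 35.5 and 37.4 FPKM and exceeded its signalling partner TGFBR1 by a factor of 7.22 ± 0.503 within libraries (SD, n = 3). The co-receptor endoglin, encoded by ENG, was at 33.1 FPKM ± 1.97 (SD, n = 3), BMPR2 at 5.68 FPKM ± 0.252 and BMPR1A at 5.03 FPKM ± 0.448 (SD, n = 3). ACVRL1, the partner of endoglin in endothelial cells, and AMHR2, the receptor of AMH, had no read.

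Integrin subunits, which pair as α and β chains to bind matrix, were expressed for 12 of 26 genes (46.2%, beside 52.2% of all protein-coding genes). ITGB1, the common β1 chain, was at 81.1, 75.3 and 92.0 FPKM. Its partners ITGA3 and ITGA6, chains of laminin receptors, were at 66.6 FPKM ± 2.81 and 42.8 FPKM ± 4.87 (SD, n = 3). ITGB5 was at 30.1 FPKM ± 1.31 and ITGA5, the fibronectin receptor chain, at 11.0 FPKM ± 0.763 (SD, n = 3). ITGB4, which pairs with ITGA6 in the hemidesmosomes of epithelia, had no read. Several leukocyte and platelet chains, ITGAL, ITGAM, ITGAD, ITGA2B and ITGB7, had none either, and ITGAX had 1. Other chains found on leukocytes were expressed, with means of 10.6 FPKM for ITGA4, 7.61 FPKM for ITGB2 and 4.68 FPKM for ITGAE.

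Of 19 Notch, Frizzled and Hedgehog receptor genes, 13 were at 1 FPKM or more (68.4%, beside 52.2%). NOTCH2 was at 19.0, 21.8 and 16.1 FPKM, and the Wnt receptor genes FZD6 and FZD2 were at 16.6 FPKM ± 2.54 and 15.0 FPKM ± 2.51 (SD, n = 3), so these 3 genes were not separated. LRP6, a Wnt co-receptor, was at 8.79 FPKM ± 0.392 and FZD8 at 7.08 FPKM ± 0.198 (SD, n = 3). NOTCH3 and FZD10 had no read, NOTCH4 had 7 and FZD9 had 4.

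Cytokine and death receptors were expressed for 18 of 24 genes (75%, beside 52.2% of all protein-coding genes). The list holds chosen members only, so its share does not describe all such receptors. TNFRSF12A, the receptor of the cytokine TWEAK, was at 96.5, 109 and 107 FPKM, above all values of the next gene. IL6ST, the shared signalling chain of interleukin-6 type cytokines, was at 22.7 FPKM ± 0.662 (SD, n = 3), TNFRSF1A at 17.0 FPKM ± 1.097, IL13RA1 at 14.4 FPKM ± 1.52 and LTBR at 13.2 FPKM ± 0.696 (SD, n = 3). IL2RG, CSF2RA and TNFRSF1B were listed at 0, and IL2RG shares 51.3% of its exonic bases with another gene of the same strand.

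Of 33 G protein coupled receptor genes for lipids, proteases and peptides, 10 were at 1 FPKM or more (30.3%, beside 52.2%). ADORA2B, an adenosine receptor, was at 45.1, 50.6 and 49.2 FPKM and exceeded F2R, the thrombin receptor, by a factor of 1.66 ± 0.0408 within libraries (SD, n = 3). F2RL1, a protease receptor, was at 7.79 FPKM ± 0.257 and LPAR3, a receptor of lysophosphatidic acid, at 3.53 FPKM ± 0.425 (SD, n = 3). The chemokine receptor gene CXCR4 had no read, which allows up to 0.0654 FPKM, and ACKR3, which binds the same chemokine, had none either.

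Genes of tumour biology were read as levels only, since no sequence variant was examined. All 20 tumour suppressors and oncogenes of the list were at 1 FPKM or more, beside 52.2% of all protein-coding genes. CCND1, cyclin D1, was the highest at 199.8, 202 and 225 FPKM, followed by MYC at 55.9 FPKM ± 0.830, CDKN2A at 39.1 FPKM ± 2.57, NRAS at 26.3 FPKM ± 3.09 and BRCA1 at 11.0 FPKM ± 0.689 (SD, n = 3). CDKN2A, which encodes inhibitors of CDK4 and of MDM2, exceeded CDKN1A, the p53 target that encodes p21, by a factor of 14.8 ± 0.692 (SD, n = 3). Of 7 surface and enzyme markers used to sort tumour subpopulations, CD44 was at 92.3 FPKM ± 1.30 and ALDH1A3 at 50.1 FPKM ± 0.906 (SD, n = 3), THY1 and KIT were at 11.4 FPKM ± 1.13 and 2.07 FPKM ± 0.224 (SD, n = 3), CD24 was at 0.122 FPKM ± 0.0903 (SD, n = 3), PROM1 had 2 reads and ALDH1A1 had none.

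Of 11 ligands of immune receptors and MHC class II genes, 6 were at 1 FPKM or more (54.5%, beside 52.2% of all protein-coding genes). Below 0.1 FPKM were 3, beside 37.5% of all protein-coding genes. PVR and NECTIN2, ligands shared by the receptors TIGIT and DNAM-1, were at 36.3 FPKM ± 1.71 and 27.2 FPKM ± 2.02 (SD, n = 3), and CD47, the signal against phagocytosis, was at 12.5 FPKM ± 0.798 (SD, n = 3). PDCD1LG2 and CD274, the ligands of PD-1, were at 3.65, 5.16 and 4.38 FPKM and at 4.50, 3.69 and 3.50 FPKM and overlapped. CD276 was at 1.37 FPKM ± 0.308 (SD, n = 3). LGALS9, which encodes the immune ligand galectin-9, was at 0.0697 FPKM, from 8 reads in all. Of the class II genes, HLA.DRB1 was at 0.503 FPKM ± 0.350 (SD, n = 3), HLA.DPA1 had 3 reads and HLA.DRA had none, and their transactivator CIITA was at 0.112 FPKM ± 0.0478 (SD, n = 3).

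The 3 libraries differed little from each other. For the 10328 protein-coding genes of at least 1 FPKM, the median SD of log2(FPKM + 0.1) over the libraries was 0.11, and 90% of genes had an SD of at most 0.24. Pearson's r between libraries across these genes was 0.992 for replicates 1 and 2, 0.992 for replicates 1 and 3 and 0.991 for replicates 2 and 3, a description across genes, which share the same libraries. Genes with 10 to 30 reads varied with a median coefficient of variation (CV) of 21.8%, against the 19.7% that counting alone gives as a median with 3 libraries. Genes with 300 to 1000 reads had 6.31% against 3.76%, and the 26 genes of 10000 reads or more had 4.10% against 0.653%. The median ratio of variance to mean of the scaled reads was 0.879 for 10 to 30 reads, 2.05 for 300 to 1000 reads and 32.3 in the top bin, and counting alone gives a median of 0.693 with 3 libraries.

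**Figure D5:**
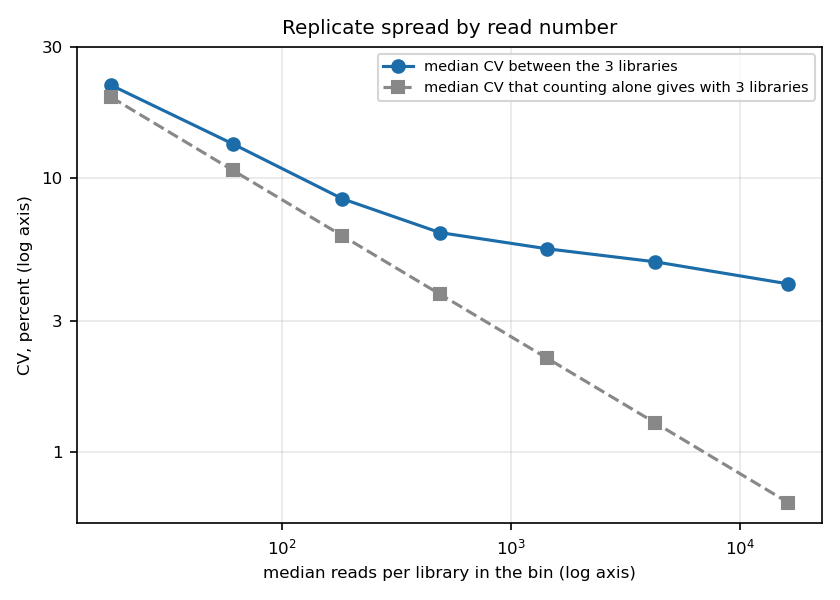
Median coefficient of variation between the 3 siC libraries (blue, percent, log axis) and the median that read counting alone gives with 3 libraries (grey), for protein-coding genes in 7 bins of reads per library (log axis). The blue line lies above the grey one in each bin, from 21.8% against 19.7% in the lowest to 4.10% against 0.653% in the highest.

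Among the 4103 genes of at least 10 FPKM, HIST2H2BE, HIST2H2BF, LY96 and FTH1 had the largest SDs of log2(FPKM + 0.1). HIST2H2BE was at 12.9, 15.8 and 3.34 FPKM and HIST2H2BF at 17.1, 15.7 and 6.92 FPKM, both lowest in replicate 3, with SDs of 1.20 and 0.71 on the log2 scale. LY96, a co-receptor of TLR4, was at 18.5, 8.97 and 21.2 FPKM, lowest in replicate 2. FTH1, the heavy chain of ferritin, was at 22.0, 37.8 and 19.3 FPKM, far below the light chain gene FTL, and 63.2% of its exonic bases are shared with a gene of the opposite strand. They were followed by KRTAP2.3, RPL28, SRM, HIST1H2BK, HIST1H4A and TOP1, with SDs between 0.48 and 0.38. Of the 35 genes with an SD above 0.3, replicate 3 was the library farthest from the others for 23 and the lower for 21, whereas over all expressed genes each library was the farthest for between 30.9% and 35.4% of genes. Among the steadiest genes were MED13L, ENOSF1, GMPPA and BCCIP. MED13L, a subunit of the Mediator kinase module, was at 10.3 FPKM in each library.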

How the data were processed

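Total RNA of ES-2 cells was taken with TRIZOL, depleted of ribosomal RNA and sequenced. The authors clipped reads with Cutadapt 1.14, aligned them with HISAT2 2.1.0 to GRCh38, counted them with featureCounts 1.5.3 on Ensembl genes and deposited FPKM, with library sizes adjusted by the TMM method of edgeR 3.18.1. The strand setting of the counting is not given in the sources used here. The siC values were identical in both deposited tables for all 58174 features. Columns with the authors' fold changes, p-values and FDR, and the columns of other siRNAs, were not used.

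Reads were recovered as multiples of the smallest product of FPKM and length per library (tolerance 0.001), and this step and the spread estimate were tested on simulated data. Means and SDs over 3 libraries were computed in Python 3.11.15 with pandas 2.3.3. No test between groups was run. Genes and lists were chosen with earlier results of these data known. Named genes were the 20 protein-coding and 10 other genes with the highest mean FPKM, the 10 with most reads, the 5 highest and up to 12 lowest (below 0.1 FPKM) members of 27 lists (438 genes), the 10 with the largest and 5 with the smallest spread at 10 FPKM or more, and the siRNA targets. A few genes of these sets are not reported here. A planned edgeR dispersion could not be fitted to FPKM and was replaced by the ratio of variance to mean of scaled reads. Exon sharing was taken from GENCODE, which is newer than the Ensembl release used for counting, and promoters from RefSeq by symbol, with the most upstream of several windows.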

Additional observations from a re-analysis of the deposited data

How the results depend on the processing

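No paired analysis was possible because only the siC libraries were described and no groups were compared. Protein-coding genes at the threshold numbered 6664 at 5 FPKM, against 10328 at 1 FPKM. Protein-coding genes took 48.1% of summed FPKM in place of 90.5% of reads, and 95.1% of reads without RN7SL2. The top 10 genes took 43.0% of summed FPKM and 5.63% of reads among protein-coding genes alone, in place of 9.65%. The mesenchymal minus epithelial median was 2.77 with a pseudocount of 1, 9.19 with 0.01, 2.03 over members at 0.1 FPKM or more and 6.99 after rescaling to TPM, in place of 5.89, and remained positive in these settings. Receptor tyrosine kinases numbered 31 at 0.1 FPKM and 10 at 5 FPKM, and nuclear receptors 32 and 11. The median SD was 0.093 with a pseudocount of 1 and 0.088 at 10 FPKM or more. Leaving out each replicate gave 0.084 to 0.094, because the SD of fewer libraries has a lower median. Without replicate 1, 2 or 3 in turn, the other values moved by less than their SD and counts by less than 1.5 times. The CpG difference between expressed and low genes was not computed, since only 69.8% of the low genes had a window, and medians by class were given instead. At 10 to 30 reads, counting alone gives a median CV of 19.7%.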

Other observations

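Other abundant genes, picked after their values were seen, encode secreted or pericellular proteins. SERPINB2, an inhibitor of plasminogen activators, was at 408, 410.4 and 444 FPKM, PTX3, a soluble pattern recognition protein, at 242 FPKM ± 11.5 (SD, n = 3), and CYR61, a matricellular protein, at 212 FPKM ± 11.8 (SD, n = 3). SFRP1 and DKK1, secreted antagonists of Wnt signalling, were at 203 FPKM ± 13.98 and 165 FPKM ± 7.11 (SD, n = 3). The plasminogen activator genes PLAT and PLAU were at 98.5 FPKM ± 4.56 and 83.9 FPKM ± 16.7 (SD, n = 3). Among nuclear factors, ANKRD1 was at 668 FPKM ± 20.2, HMGA1 at 654 FPKM ± 23.3, FOSL1 at 158 FPKM ± 9.49 and FOXD1 at 118 FPKM ± 6.87 (SD, n = 3). The hair keratin KRT81 was at 288 FPKM ± 17.7 (SD, n = 3), above KRT7. The sperm antigen SPANXB1, which has near-identical copies, was at 453 FPKM ± 19.5 (SD, n = 3). Of long non-coding RNAs, GAS5 was at 112 FPKM ± 4.58, NORAD at 90.04 FPKM ± 9.85, CDR1.AS at 73.4 FPKM ± 1.77 and LINC00704 at 55.5 FPKM ± 0.607 (SD, n = 3).

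Some stretches of neighbouring protein-coding genes were all below 0.1 FPKM. How long such runs would be by chance was not computed, and many of their genes belong to families of similar copies. The longest run of neighbouring protein-coding genes below 0.1 FPKM held 56 genes on chromosome 11 from 48216810 to 57237250 (GRCh38), 49 of them olfactory receptors, and none had a read. It was followed by 44 genes on chromosome 1 from 152514482 to 153460651, 17 of them late cornified envelope genes of the epidermis, and 36 genes on chromosome 21 from 29536933 to 31038476, 33 of them keratin-associated genes of hair. No gene of the latter runs had a read either.

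A gene that every cell needs can also read near 0 in these files. Of 12 RNA polymerase II subunit genes, looked at after POLR2F was seen to be low, 11 were at 1 FPKM or more. This was 91.7%, beside 52.2% of all protein-coding genes, and the median over the 12 was 21.7 FPKM. POLR2F had 4 reads in all. In the later annotation none of its exonic bases is shared with another gene of the same strand and 3.71% are shared with the opposite strand.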
